A study of Mus musculus with 8 samples.

Results

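The genes described here code for the death receptors Fas and Tnfrsf1a and for proteins that carry or hold back their signal: the adaptor Fadd, the kinase Ripk1, caspase 8, its inhibitor Cflar, and the caspases 9 and 6. They were taken by symbol, a choice made with earlier results of these data known, and are 8 of the 18138 genes on Illumina MouseRef-8 v2.0 arrays. The array has 20 probes for them among 25697 in all. Skin fibroblasts of 4 Nd2-mutant mice (C57BL/6J-mtALR/LtJ) were compared with those of 4 control mice (C57BL/6J-mtAKR/J), each on 1 array. The strains are conplastic: both carry the nuclear genome of C57BL/6J, and the mitochondrial genome comes from the donor strain ALR/LtJ or AKR/J. The mutant allele exchanges leucine for methionine in Nd2, a mitochondrially encoded subunit of complex I. Mice of both strains were 12 months old. Mice 28 and 32 (Nd2 mutant) and 16 and 17 (control) were male, and mice 34 and 35 (Nd2 mutant) and 15 and 37 (control) were female. The cells were grown in DMEM with serum, and no treatment is given in the labels.

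Death receptors are cell surface receptors of the tumour necrosis factor (TNF) family with a death domain in their cytoplasmic part. Bound by its ligand, Fas recruits Fadd, and Fadd recruits caspase 8, which is activated in this complex and cleaves effector caspases. Tnfrsf1a, the main receptor of TNF, binds Ripk1 and mostly leads to NF-κB and MAP kinase signalling, and to cell death only when this branch is blocked. In the mitochondrial route cytochrome c from the respiratory chain is released into the cytosol, and caspase 9 is the initiator caspase that follows this release.

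The deposited intensities were quantile normalized between the arrays and background subtracted by the authors. A probe was called detected on an array at a detection p-value under 0.01 and entered the tests when every one of the 4 mice of a strain, or of both, had it detected. Between 10663 and 11350 probes were detected per array. All 9 fibroblast markers on the array (Col1a1, Dcn, Pdgfra and others) were detected in 8 of 8 mice, with summed intensities from 35180 to 40640 in mutant and from 29522 to 43212 in control cells. Single markers differed as much as the genes described here. Lum and Dcn ILMN_2596346 were higher in mutant cells without overlap (log2 differences of 0.88 and 0.82). The endothelial marker Emcn was lower without overlap (-1.20), and all had an adjusted p of 0.639 in limma. The strains overlapped for the other tested fibroblast probes, from -0.30 (Col1a2) to 0.44 (Vim), with 0.12 for the brighter Dcn probe ILMN_2747959. They also overlapped for the other tested endothelial probes, from -0.40 (Pecam1 ILMN_2700982) to 0.49 (Tek). The array of control mouse 15 stood somewhat apart, with a mean correlation of 0.934 with the others, against at least 0.963 for the remaining mice. In Nd2-mutant mouse 35 the intensities of 10 macrophage markers summed to 1829, whereas they reached 304 to 397 in the other mutants and 228 to 613 in control cells. Of these markers 3 were detected in 8 of 8 mice, and Ptprc in none. The strains overlapped for all tested macrophage probes, from -0.12 (Csf1r ILMN_2710819) to 1.24 (Lyz2), with 1.08 for C1qb. Lyz2 had intensities of 78.3, 67 and 102 in Nd2-mutant mice 28, 32 and 34. In control mice 15, 16, 17 and 37 it had 20.7, 11.3, 152 and 47.4. Mice 15 and 16 were thus its lowest controls, as for Tnfrsf1a and Casp6 below. Laptm5 was highest among controls in mouse 15, at 443. Summed intensities were 189 to 1169 in mutant and 318 to 923 in control cells for 5 keratinocyte markers, 123 to 218 and 199 to 454 for 5 endothelial markers (Kdr undetected), and 12.9 to 28.5 and 19.3 to 29.0 for 4 T cell markers (Cd2, Cd3d and Cd3e undetected). The part of such cells in the results below was not tested beyond leaving out single mice, which does not remove such cells from the others. In bulk RNA, fewer cells with a transcript and less of it per cell cannot be told apart.

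Of the 20 probes, 14 were tested, and they belong to 7 of the 8 genes. No probe of Cflar was detected on any array. After Benjamini-Hochberg adjustment over all 10414 tested probes, 0 of the 14 had an adjusted p under 0.05 in limma, with 0.639 as the lowest. Without adjustment 5 of the 14 had a p under 0.05, all higher in Nd2-mutant fibroblasts and belonging to Tnfrsf1a and Casp6. Over all tested probes 4.50% were higher at this threshold, 3.13% lower, and 7.63% in either direction. These 5 probes stand for 2 genes, since probes of 1 gene are not independent. Without Nd2-mutant mouse 32, Nd2-mutant mouse 34 or control mouse 16 the count was 3 instead of 5. Both Casp6 probes were lost there, and also without Nd2-mutant mouse 28 or control mouse 15, where Fas ILMN_2902979 came in; without Nd2-mutant mouse 35 or control mouse 37 1 Casp6 probe was lost. With the methods' t-test 4 probes had an unadjusted p under 0.05, the 3 of Tnfrsf1a and 1 of Fadd (6.70% of all tested probes), and 0 an adjusted one (0.0096%). The strains did not overlap for 4 of the 14 probes, compared with 4.37% of all tested probes. Of these, 3 were higher in Nd2-mutant fibroblasts (2.24% of all) and 1 lower (2.13%). Among the 3, Tnfrsf1a ILMN_2469333 was detected in 4 Nd2-mutant but only 3 control mice. It thus entered the tests only through the strain where it was higher. When detection on all 8 arrays was required, 4 of 13 probes had an unadjusted p under 0.05 in limma. The median log2 fold change of the 14 probes was 0.12, that of all tested probes 0.00, with 9 of the 14 higher in Nd2-mutant fibroblasts and 5 lower. Of all 10414 tested probes 5223 were higher and 5191 lower.

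**Figure D1:**
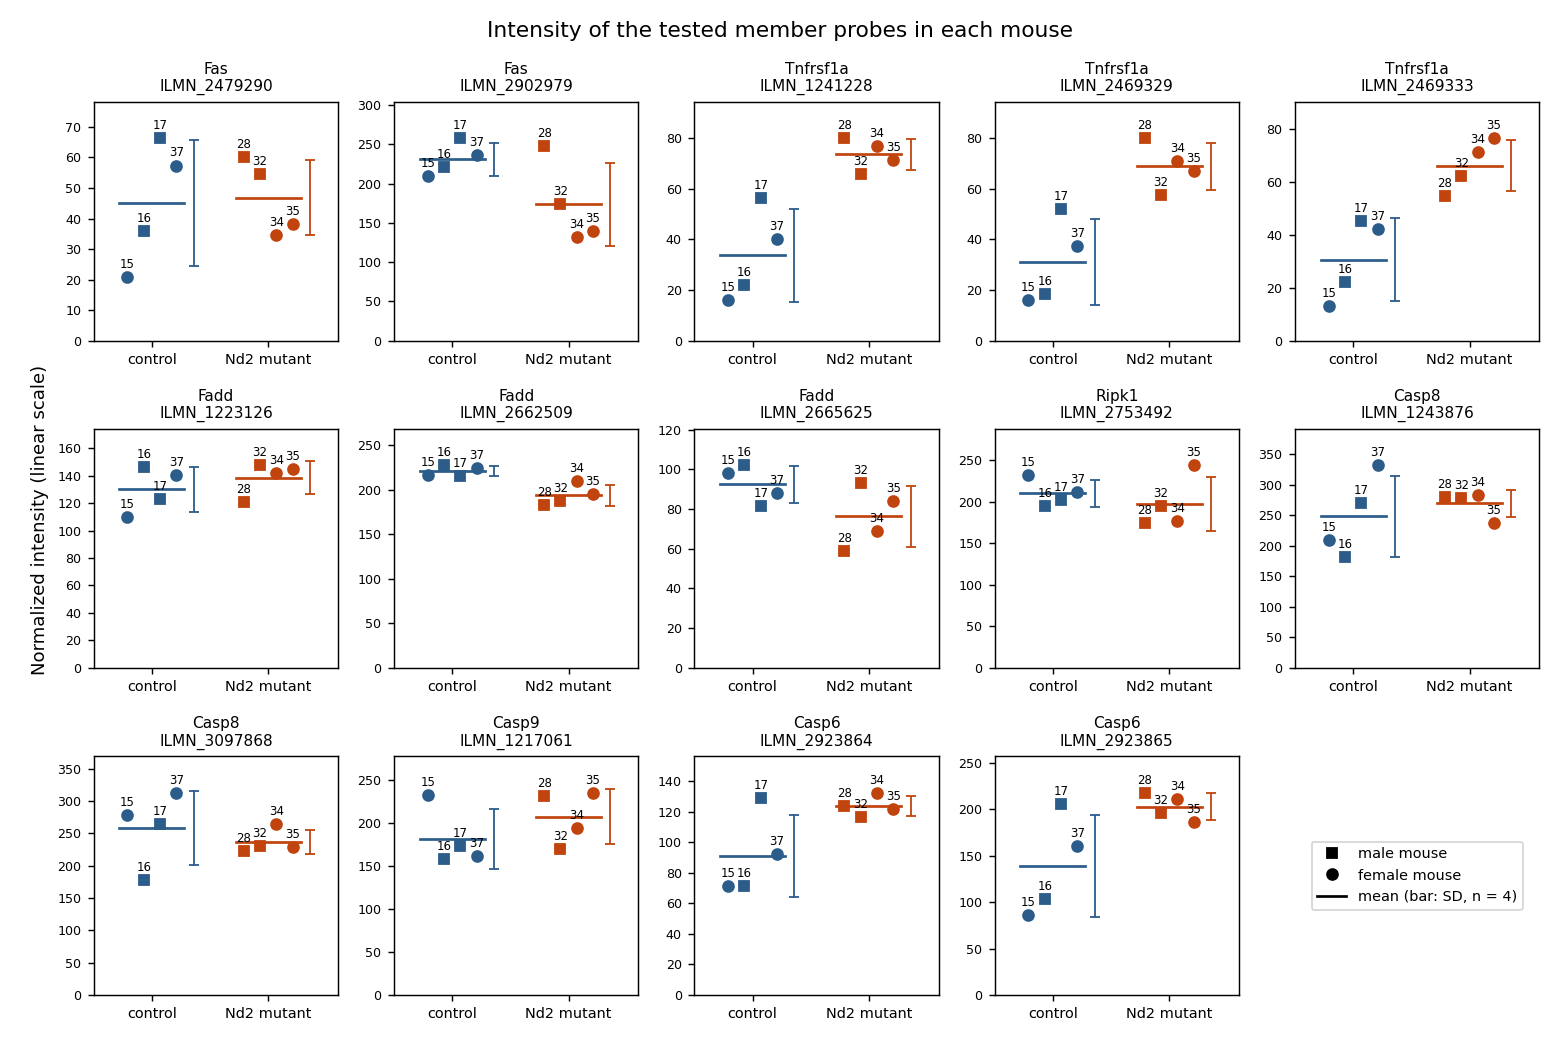
Normalized intensity (y axis, linear scale) of the 14 tested probes in each of the 8 mice, with the mouse number beside each point, squares for males and circles for females. Horizontal lines are means and the bars beside them SDs (n = 4 mice); the 4 Nd2-mutant mice lie above the 4 control mice for all 3 Tnfrsf1a probes, and below them for Fadd ILMN_2662509.

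**Figure D2:**
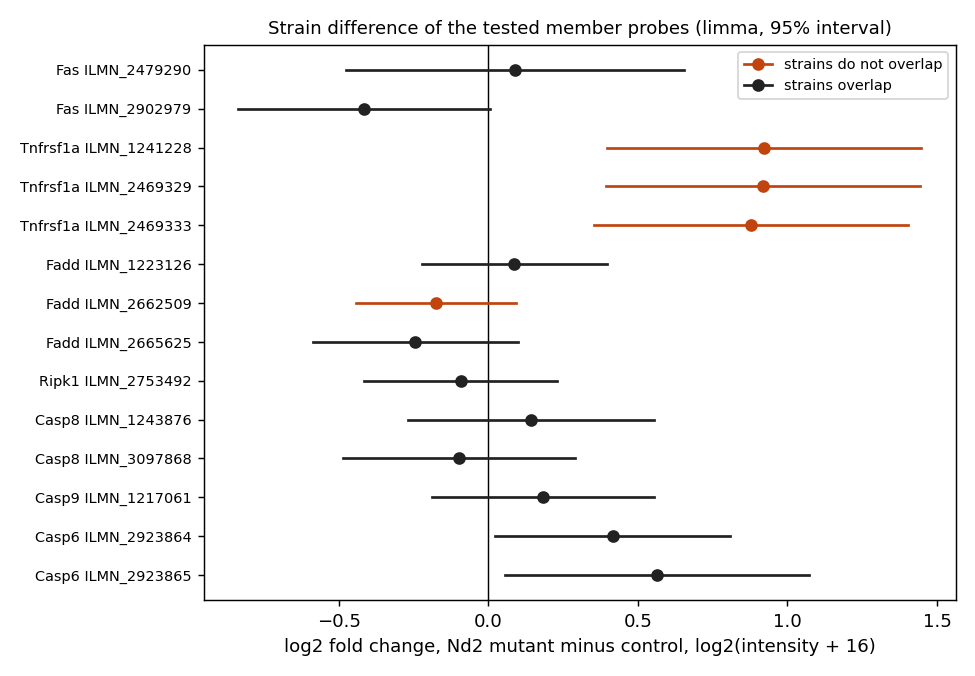
Log2 fold change of each tested probe (x axis, Nd2 mutant minus control, on log2 of intensity plus 16) with its 95% interval from limma. The 3 intervals of Tnfrsf1a, from 0.35 to 1.45, and those of Casp6 lie above 0, and all others include 0.

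Tnfrsf1a (chromosome 6) had the largest difference of the 8 genes on the log2 scale, though not on the linear scale. There Casp6 ILMN_2923865 differed by 64.0 intensity units, Fas ILMN_2902979 by -57.3 and Tnfrsf1a by at most 39.9. The Tnfrsf1a probe ILMN_1241228 had intensities of 79.9, 65.8, 77.0 and 71.5 in Nd2-mutant mice 28, 32, 34 and 35. In control mice 15, 16, 17 and 37 the intensities were 15.9, 22.0, 56.3 and 40.2. Every Nd2-mutant mouse thus lay above every control mouse, and the controls were spread much more widely, with mice 15 and 16 far below mice 17 and 37. The means were 73.5 ± 6.24 (SD, n = 4 mice) and 33.6 ± 18.3 (SD, n = 4). The log2 fold change was 0.92 (standard error 0.24, 95% interval 0.40 to 1.45), or 1.90-fold after 16 had been added to each intensity, with an adjusted p of 0.639 in limma. Its size depended on the value added: it was 1.26 with 1 added and 0.59 with 50 added. An exact permutation test gave p = 0.0286, and no lower p is possible with 4 mice per strain. Any probe without overlap between the strains gets this p, so that here and below it only restates the lack of overlap.

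The other probes of Tnfrsf1a gave nearly the same picture. ILMN_2469329 ranged from 57.6 to 79.8 in Nd2-mutant and from 15.9 to 52.0 in control mice, and differed by 0.92 (standard error 0.24) on the log2 scale. ILMN_2469333 ranged from 54.6 to 76.5 in Nd2-mutant and from 12.9 to 45.1 in control mice, a log2 difference of 0.88 (standard error 0.24), and it was not detected in control mouse 15. With 1 and 50 added it was 1.28 and 0.57 for the former and 1.24 and 0.54 for the latter. The exact permutation p was 0.0286 for each. Control mice 15 and 16 were the lowest in all 3 probes, with mouse 15 below mouse 16, and mouse 17 was the highest control. Among Nd2-mutant mice the probes differed: mouse 28 was the highest for ILMN_1241228 and ILMN_2469329, but the lowest for ILMN_2469333. Without control mouse 15, whose array stood apart, the log2 fold changes lay between 0.67 and 0.76. Without Nd2-mutant mouse 35, the mouse with high macrophage markers, that of ILMN_1241228 was 0.93. Without control mouse 17 it was 1.13, with an adjusted p of 0.167 in limma, the lowest of any alternative for this probe. The range of its adjusted p over 20 alternatives was 0.167 to 0.929. Within each sex the direction was the same, with log2 fold changes for ILMN_1241228 of 0.76 in males and 1.09 in females (2 mice against 2 each).

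Casp6 (chromosome 3) codes for an effector caspase, which cleaves nuclear lamins among other substrates. Its probe ILMN_2923865 had intensities of 218, 196, 211 and 187 in Nd2-mutant mice 28, 32, 34 and 35, and of 86.0, 104, 206 and 160 in control mice 15, 16, 17 and 37. Control mouse 17 lay within the range of the Nd2-mutant mice, and the other 3 controls below it. The log2 fold change was 0.56 (standard error 0.23, 95% interval 0.06 to 1.07, adjusted p = 0.639 from limma). By exact permutation the p was 0.0857. ILMN_2923864 had intensities from 116 to 132 in Nd2-mutant mice and of 71.4, 71.2, 129 and 92.4 in control mice 15, 16, 17 and 37. Its log2 fold change was 0.42 (standard error 0.18, 95% interval 0.02 to 0.81), with an exact permutation p of 0.114. Both probes of Casp6 thus shared the order of the controls with Tnfrsf1a, as far as mice 15 and 16 were low and mouse 17 high. The difference rested in part on single mice: it was 0.76 for ILMN_2923865 without control mouse 17 0.39 without control mouse 15 and 0.32 with array weights. Both probes of Casp6 had an unadjusted p under 0.05 in limma in only 1 of the 8 fits that left out a mouse, that without control mouse 17. The adjusted p ranged from 0.260 to 0.929 over its 20 alternatives.

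Mice 15 and 16 were the lowest of the 4 controls for 8 of the 14 tested probes (Tnfrsf1a, Casp6, both tested probes of Fas, and ILMN_1243876 of Casp8). This pair of mice was picked after the values had been seen, and it holds the lowest places for 27.5% of all tested probes. The mice are 1 male and 1 female of the same strain, so that sex does not separate them from mice 17 and 37. On the log2 scale the SD among controls exceeded that among Nd2-mutant mice for 10 of the 14 probes, a share close to the 73.4% of all tested probes. Without control mouse 15, a comparison added after the data had been seen, it did so for 8 of the 14 and for 55.3% of all tested probes.

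**Figure D3:**
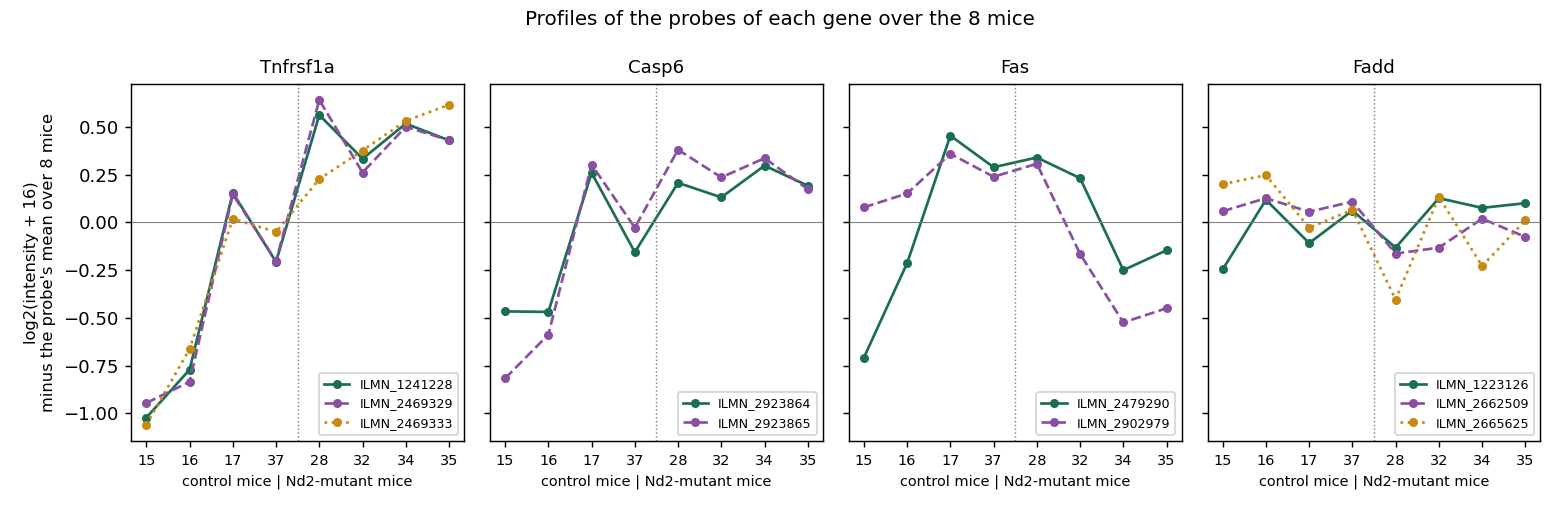
Log2 of intensity plus 16, minus each probe's own mean over the 8 mice (y axis), for the tested probes of Tnfrsf1a, Casp6, Fas and Fadd; the x axis gives the mouse numbers, controls on the left, and the lines only join values of 1 probe, since mice have no order. The probes of Tnfrsf1a run together, as do those of Casp6, whereas those of Fas and of Fadd part from each other. Control mice 15 and 16 are the lowest controls for Tnfrsf1a, Casp6 and Fas.

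The 250 bases before the RefSeq start (assembly GRCm38.p6) are shown for Tnfrsf1a, Casp6 and Fadd. Tnfrsf1a and Casp6 are the 2 genes with probes higher at an unadjusted p under 0.05 in limma, none of them after adjustment. Control mice 15 and 16 were the lowest controls for Tnfrsf1a and Casp6 and not for Fadd. The same held for both tested probes of Fas and for Casp8 ILMN_1243876, whose windows are not shown. The choice thus does not set Tnfrsf1a and Casp6 apart. Matches to a GC box (GGGCGG) and a CCAAT box (CCAAT), searched on both strands, are in capitals; TATAAA was searched as well. The sequences are written 5′ to 3′ on the strand of the gene, Tnfrsf1a at chr6:125349473-125349722 (plus strand), Casp6 at chr3:129901165-129901414 (plus strand) and Fadd at chr7:144582442-144582691 (minus strand).
Tnfrsf1a: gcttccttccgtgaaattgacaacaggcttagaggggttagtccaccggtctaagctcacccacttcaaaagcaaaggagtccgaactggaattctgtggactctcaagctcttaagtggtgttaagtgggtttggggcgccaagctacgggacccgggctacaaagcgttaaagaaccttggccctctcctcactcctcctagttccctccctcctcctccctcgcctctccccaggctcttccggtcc
Casp6: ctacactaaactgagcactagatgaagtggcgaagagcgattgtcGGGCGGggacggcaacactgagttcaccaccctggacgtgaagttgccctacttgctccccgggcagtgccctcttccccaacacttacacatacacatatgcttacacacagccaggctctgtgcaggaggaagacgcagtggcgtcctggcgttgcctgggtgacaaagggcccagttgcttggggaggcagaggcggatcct
Fadd: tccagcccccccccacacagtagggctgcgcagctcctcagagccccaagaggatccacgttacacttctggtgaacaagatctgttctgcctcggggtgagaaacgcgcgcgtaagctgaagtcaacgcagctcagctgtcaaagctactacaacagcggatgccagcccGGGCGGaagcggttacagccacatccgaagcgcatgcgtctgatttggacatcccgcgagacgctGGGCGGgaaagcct
The GC box was found 2 times for Fadd, 1 time for Casp6 and 0 times for Tnfrsf1a. Neither CCAAT nor TATAAA was found in any of the 3. Over 32851 such windows, 32.7% held a GC box, 33.8% CCAAT and 12.4% TATAAA. These are matches of letters only, and the arrays measure no binding.

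Fadd, the adaptor between Fas and caspase 8, has 4 probes, and their results differ. The study lists Fadd among genes lower in the mutant, from these same arrays, so that its direction here is no independent evidence. Its only entry there equals the linear difference of the brightest probe, and the other probes are not listed. The brightest probe, ILMN_2662509, had intensities of 183, 187, 210 and 195 in Nd2-mutant mice 28, 32, 34 and 35, and of 216, 227, 216 and 224 in control mice 15, 16, 17 and 37. The strains did not overlap, and the spread was small in both. The means were 194 ± 11.8 (SD, n = 4) and 221 ± 5.88 (SD, n = 4). The log2 fold change was -0.18 (standard error 0.12, 95% interval -0.44 to 0.09), with an adjusted p of 0.690 in limma and an exact permutation p of 0.0286. The unadjusted p depended on the test and the scale: it was 0.176 in limma on the log2 scale, 0.00715 with the methods' t-test, and 0.00933 in limma on the linear scale, on which the difference was -26.9 intensity units.

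ILMN_2665625 of Fadd (chromosome 7) ranged from 59.1 to 93.0 in Nd2-mutant and from 81.5 to 102 in control mice. Its log2 fold change was -0.24 (standard error 0.16, 95% interval -0.59 to 0.10), and the strains overlapped through Nd2-mutant mice 32 and 35. ILMN_1223126 had intensities from 121 to 148 in Nd2-mutant and from 110 to 147 in control mice, a log2 fold change of 0.09 (95% interval -0.22 to 0.40). The exact permutation p was 0.143 for the former and 0.457 for the latter. The remaining probe, ILMN_2874409, was detected in Nd2-mutant mouse 32 and control mouse 16 only and was not tested. For the tested probes of Fadd the intervals allow at most a difference of 0.59 on the log2 scale in either direction. The other genes whose profile over the 8 mice was most like that of ILMN_2662509 were Hdlbp, G3bp1 and Dpagt1. The root mean square difference of their centred log2 values from those of ILMN_2662509 was between 0.04 and 0.05. They were picked as the nearest among 10411 probes of other genes, so that a small difference follows from the choice. The median over these probes was 0.27. ILMN_2662509 itself varied little, from 7.64 to 7.93 on the log2 scale, so the median largely reflects how much the other probes vary. Whether these genes share regulation with Fadd was not tested.

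Fas (chromosome 19), the receptor that Fadd binds, gave opposite directions in its tested probes. ILMN_2902979 had intensities of 248, 174, 132 and 140 in Nd2-mutant mice 28, 32, 34 and 35, and of 209, 221, 258 and 236 in control mice 15, 16, 17 and 37. All Nd2-mutant mice but the male 28 lay below every control. The log2 fold change was -0.42 (standard error 0.19, 95% interval -0.84 to 0.00), with an adjusted p of 0.639 in limma and an exact permutation p of 0.114. It was -0.59 without Nd2-mutant mouse 28, -0.65 among females and -0.18 among males. Its unadjusted p in limma was 0.0523, and under 0.05 in 6 of 20 alternatives: 0.0470 with 50 added, 0.0201 when arrays were weighted, 0.0329 with a term for sex, 0.00471 without Nd2-mutant mouse 28, 0.0450 without control mouse 15 and 0.0349 in females. The interaction of strain and sex was 0.46 (standard error 0.32, unadjusted p = 0.186 from limma), so that no difference between the sexes was detected. ILMN_2479290 had lower intensities, from 34.5 to 60.0 in Nd2-mutant and from 20.7 to 66.3 in control mice. Its log2 fold change was 0.09 (standard error 0.26), and -0.13 without control mouse 15, which had the lowest value. In both probes the male Nd2-mutant mice 28 and 32 were higher than the female mice 34 and 35. The third probe of Fas, ILMN_2454420, was not detected on any array.

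For the other genes the strains overlapped. Ripk1 (chromosome 13), the kinase bound by Tnfrsf1a, had intensities of 174, 195, 177 and 244 in Nd2-mutant mice 28, 32, 34 and 35 and of 232, 195, 202 and 212 in control mice 15, 16, 17 and 37. Nd2-mutant mouse 35 was the highest of all mice. The log2 fold change was -0.09 (95% interval -0.42 to 0.23). Casp9 (chromosome 4), the initiator caspase of the mitochondrial route, was read by ILMN_1217061, with intensities from 170 to 236 in Nd2-mutant and from 158 to 233 in control mice and a log2 fold change of 0.18 (95% interval -0.19 to 0.55). Its other probes, ILMN_2674731 and ILMN_2758139, were not detected on any array, with intensities of at most 1.97.

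Casp8 (chromosome 1), the initiator caspase of the death receptors, has 2 probes, annotated to different transcript variants. Whether each reads only its variant was not tested. ILMN_1243876, annotated to variant 1, had intensities of 280, 277, 284 and 237 in Nd2-mutant mice 28, 32, 34 and 35. In control mice 15, 16, 17 and 37 it had 209, 181, 270 and 332. ILMN_3097868, annotated to variant 2, had intensities of 222, 231, 264 and 229 in the same Nd2-mutant mice and of 278, 178, 264 and 313 in the same control mice. The Nd2-mutant mice lay inside the range of the controls for both probes. The log2 fold changes were 0.14 (95% interval -0.27 to 0.55) for ILMN_1243876 and -0.10 (95% interval -0.48 to 0.29) for ILMN_3097868. Cflar (chromosome 1), which competes with caspase 8 for Fadd and blocks its activation, likewise has 2 probes annotated to different variants. Their intensities lay between -6.30 and 5.17, not above background in any mouse. These probes give no level for Cflar.

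A strain by sex interaction was not found at an unadjusted p under 0.05 for any of the 14 probes (0 of 14), compared with 1.77% of all tested probes. With 2 mice per strain and sex the precision is low.

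Other genes of the pathway were taken from a list of 70 ligands, receptors, adaptors, caspases, inhibitors, BCL2 family members and substrates, of which 69 have a probe. Of these genes 44 were tested, with 60 probes, and 0 had an adjusted p under 0.05 in limma (lowest 0.639). Without adjustment 5 genes with 6 probes had a p under 0.05, 2 genes higher and 3 lower in Nd2-mutant fibroblasts, against 7.63% of all tested probes. The median log2 fold change of the 60 probes was -0.01. Without Nd2-mutant mice 28, 32 or 34 or control mouse 16 the number of genes was 2, 1, 3 and 3 instead of 5. It was 4 when detection on all 8 arrays was required.

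No death ligand was seen: the probes of Fasl, Tnf, Tnfsf10, Tnfsf12 and Lta were not detected on any array, with intensities of at most 7.64. Of 9 other receptors of the TNF family 6 were tested. Tnfrsf10b, the mouse receptor for the ligand Tnfsf10, was lower without overlap in ILMN_1230700, at 11.6 ± 4.17 in Nd2-mutant and 21.6 ± 5.42 in control mice (SD, n = 4 each), a log2 difference of -0.45 (standard error 0.16) that had an adjusted p of 0.639 in limma. This dim probe was detected in 3 of 4 Nd2-mutant and 4 of 4 control mice. It thus entered the tests only through the controls, where it was higher. Tnfrsf10b was also lower in ILMN_2455181, with a log2 fold change of -0.30. Its brightest probe, ILMN_2945095, showed a log2 fold change of 0.11 (standard error 0.32), with intensities from 169 to 225 in Nd2-mutant and from 80.1 to 304 in control mice. The study also lists Tnfrsf10b as lower, from these same arrays, which is no independent evidence. Its entries match the linear differences of ILMN_1230700 and ILMN_2455181, and the brightest probe is not listed there.

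Of the adaptors, ubiquitin enzymes and necroptosis genes 14 of 19 were tested. Rbck1, a subunit of the ubiquitin ligase complex that acts at Tnfrsf1a, was higher without overlap, from 135 to 175 in Nd2-mutant and from 96.9 to 130 in control mice, with a log2 fold change of 0.35 (standard error 0.14). In the BCL2 family 12 of 17 genes were tested, 11 of their 14 probes were lower in Nd2-mutant fibroblasts and 3 higher, and the median was -0.12. Of all 10414 tested probes 5191 were lower and 5223 higher, with a median of 0.00. Some of the 12 genes have 2 tested probes, which are not independent, and whether the family differs as a set was not tested. The anti-apoptotic Bcl2 had a log2 fold change of -0.36, close to background (9.45 to 22.4 in Nd2-mutant and 24.1 to 31.7 in control mice). Bcl2l1, likewise anti-apoptotic, had one of 0.48 (31.3 to 37.9 in Nd2-mutant and 9.12 to 30.7 in control mice). The Bcl2 probe was detected in 3 of 4 Nd2-mutant and 4 of 4 control mice, the Bcl2l1 probe in 4 of 4 and 3 of 4. Each thus entered the tests only through the strain where it was higher. For Bok, a relative of Bax, the log2 fold change was -0.50 (standard error 0.22). Casp1, Casp2 and Casp4 had log2 fold changes from -0.21 to 0.34. None of the other tested caspases, of the apoptosome and IAP genes (5 of 7 tested) and of the caspase substrates (3 of 6 tested) had an unadjusted p under 0.05.

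**Figure D4:**
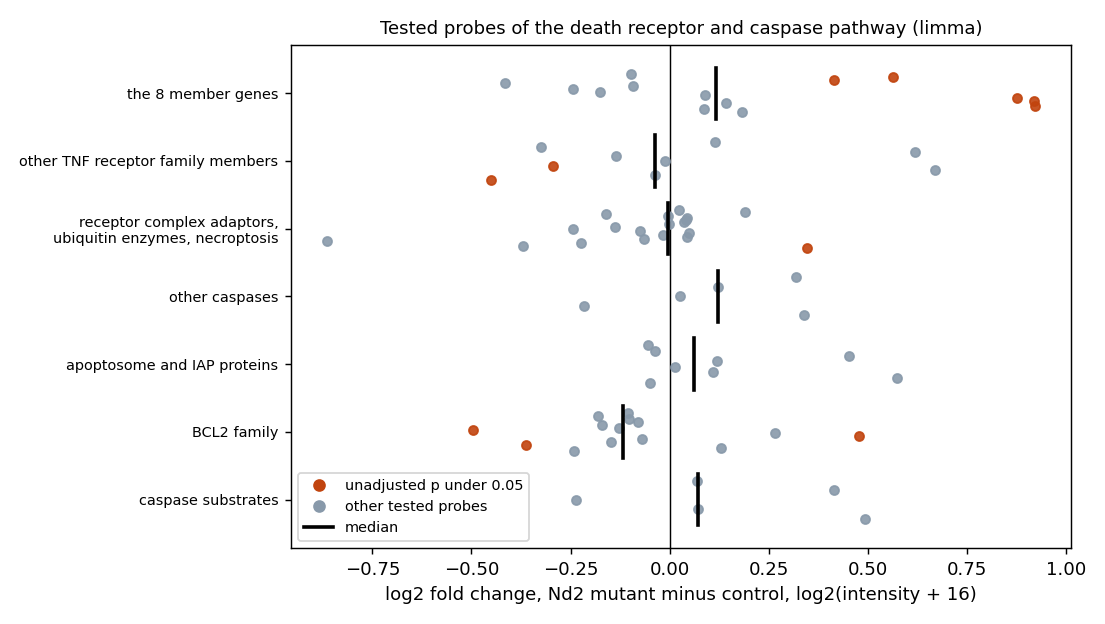
Log2 fold change (x axis, Nd2 mutant minus control, on log2 of intensity plus 16) of the 14 tested probes of the 8 genes and of the 60 tested probes of other pathway genes, by role; orange points have an unadjusted p under 0.05 in limma, and vertical bars are medians. The median is 0.12 for the 8 genes and -0.12 for the BCL2 family, compared with 0.00 over all tested probes of the array.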

How the data were processed

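Total RNA of skin fibroblasts was hybridised to 8 arrays, 1 per mouse, with strain, sex and mouse number taken from the sample labels. In GenomeStudio the authors normalized the arrays by quantiles and subtracted background. The deposited intensity values are linear, and 26.2% are 0 or lower. Beside each intensity the authors deposited a detection p-value from the same software. The deposited tables of normalized and non-normalized data hold the same bytes. Negative values were raised to 0, and log2 was taken after adding 16, which makes the changes of dim probes smaller. Probes were tested separately by limma 3.58.1 under R 4.3.3 (2-sided; p adjusted by Benjamini-Hochberg across the whole tested table), and single probes with an exact permutation test (scipy 1.17.1). Simulated intensities with known changes were used to check the code. The number of arrays limits the precision. The p-values set the strain difference against the spread between mice, which limma moderates with the spread of all tested probes.

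The 8 genes, the pathway list and the marker lists were chosen with earlier results of these data known. Other pathway genes were named if they had an unadjusted p under 0.05, and the 3 genes nearest to Fadd by their profile; genes outside this rule are named by their role or detection. Promoter windows came from RefSeq; probe sequences were not used here, so the part of the transcript each probe reads is not given. Alternatives were another value added before log2, the linear scale, other filters on detection, the methods' t-test, a trend, array weights, sex as a term, each sex alone, and leaving out each mouse. Some genes of the pathway list are not reported here by name.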

Additional observations from a re-analysis of the deposited data

Results flagged for a closer look

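In Nd2-mutant mouse 35 the intensity of Casp8 ILMN_1243876 lay apart from the other 3 Nd2-mutant mice, at 237 against 277 to 284. Its gap to the nearest of them was 0.880 of the whole range of the group on the log2 scale, beyond Dixon's critical value for 4 samples. It was the only such case among 28 groups of 4 mice, where chance gives about 1 in 20, or 1.4. The same mouse had the high macrophage markers, and the part of these in the Casp8 value was not tested.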

How the results depend on the processing

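Not run were normexp, median centring (both need values before normalization) and a chip term, as chips are unnamed. No paired analysis was possible because mouse numbers differ between the strains. With 14 probes tested, 10 strain differences kept their direction under every alternative and 4 did not; none had an adjusted p under 0.05 under any. The differences of Fas ILMN_2479290 (0.09) and Casp8 ILMN_1243876 (0.14) became -0.18 and -0.0197 with array weights. That of Fas ILMN_2479290 was -0.01 without Nd2-mutant mouse 28 and ranged from -0.13 to 0.26 when single mice were left out. In males alone Fadd ILMN_1223126 was at -0.0075 and Casp8 ILMN_3097868 at 0.055, and in females alone Casp8 ILMN_1243876 was at -0.0222. The causes were not tested. Of the probes of the 8 genes, 3 to 5 had an unadjusted p under 0.05 when single mice were left out, and 2 in males alone. For the other pathway genes the count of 5 became 3 with 50 added, 2 on the linear scale, 8 without a filter (more probes tested) and 1 in females alone, and 1 to 7 without single mice. Over all tested probes, 3 had an adjusted p under 0.05 in limma without a filter and 1 with the methods' t-test, none of them of the 8 genes. Without a filter, 1 undetected probe (Casp9 ILMN_2758139) had an interaction of strain and sex at an unadjusted p under 0.05 (adjusted p = 0.985, limma). Signal over background limits dim probes: at most 44.2% of probes were detected on an array.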
